A study of Mus with 51 samples.

Results

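The genes described here are the SR proteins, the hnRNP proteins, the proteins of the Sm ring and of the U1 and U2 particles, and the subunits of SF3a and SF3b. They were taken by symbol from the deposited count table, as every feature whose symbol begins with Srsf and a number, Hnrnp, Snrp, Sf3a or Sf3b, leaving out the 2 such symbols marked as pseudogenes. That gave 53 of 34923 features, of which 52 passed the filter on low counts that kept 17211 genes for testing. They comprise 11 SR protein genes, 20 hnRNP genes, 8 Sm ring genes, 4 genes of U1 or U2 proteins, 3 SF3a genes, 6 SF3b genes and Snrpert, which RefSeq annotates as a pseudogene. Snrpn, a tissue-restricted Sm gene, was the one that was not tested, with 37 counts in all 51 libraries together.

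Cells were sorted from lymph nodes of B10.A mice that lack Rag2 and carry the 5C.C7 T cell receptor transgenes, so that their T cells share 1 receptor and no endogenous receptor is rearranged. All groups share this background. The groups are MCC+GP CD69-hi, MCC CD69-hi, MCC+GP CD69-lo, MCC CD69-lo, GP alone and no peptide (NP), each at 1, 6 and 24 h. CD69, by which the MCC cells were divided, is a surface protein that T cells display early after receptor stimulation. The labels do not spell out MCC and GP, and the title of the series speaks of endogenous self-peptides. They also do not say which cells presented the peptides, whether animals were pooled, or whether the replicates came from separate animals, so that the p-values here reflect the spread among the libraries and no more, which may be technical.

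Introns are removed from pre-mRNA by the spliceosome, which assembles anew on each intron. The U1 particle recognises the start of the intron, and the U2 particle, helped by SF3a and SF3b, binds the branch site. Most of these particles are built on a ring of Sm proteins that closes around a small nuclear RNA. SR proteins mostly bind exons and favour their inclusion, whereas hnRNP proteins coat pre-mRNA and often act against inclusion. In T cells these regulators are best known for the exon choice of CD45, in which hnRNP L and its relative hnRNP LL keep variable exons out of the message.

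Poly-adenylated RNA was sequenced in 51 libraries, 3 in each group except NP, GP and MCC CD69-lo at 6 h, with 2 each. Total counts ran from 29030 to 10278776 per library. The 3 MCC+GP CD69-lo libraries at 24 h stood apart, with 29030 to 301455 counts. Mean levels of the T cell genes Cd3e and Cd4 were 85.4 to 337 and 76.6 to 666 CPM (counts scaled to the total of the library) over the 18 groups. Cd4 was lowest in MCC CD69-hi cells at 6 h, at 76.6 CPM against 587 CPM in NP cells. T cell genes did not all move together, as Trac stood there at 4573 CPM, against 2306 CPM in NP cells. RNA of B cell genes, which T cells express little if at all, was found in every library. The summed level of 20 B cell genes was 3429 to 5430 CPM in MCC CD69-hi libraries at 1 h, against 557 to 786 CPM in NP libraries. At 6 h it was 881 to 1742 CPM in MCC CD69-hi libraries and 462 to 742 CPM in NP libraries. At 24 h it was 224 to 377 CPM in MCC CD69-hi libraries and 653 to 929 CPM in NP libraries. A sum does not show whether its genes moved together, so it need not follow the B cell content alone. The same limit holds where this sum serves as a covariate below. The libraries are bulk samples, in which fewer cells of a type and less RNA per cell cannot be told apart.

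As a whole, the 53 genes took a growing share of the RNA of CD69-hi cells. Their part of the counts in MCC CD69-hi libraries lay at 1.76 to 1.83% at 1 h, then at 1.99 to 2.23% at 6 h, and finally at 2.28 to 2.38% at 24 h. In NP libraries they held 1.62 to 1.68%, 1.36 to 1.40% and 1.33 to 1.43% at the same times. The MCC CD69-hi and NP libraries did not overlap at any time, and the gap was widest at 24 h. MCC+GP CD69-hi libraries at 1 h held 1.64 to 1.85%, overlapping GP libraries at 1.61 to 1.70%. They were apart at 6 h, at 2.13 to 2.25% against 1.26 to 1.33%, and at 24 h, at 2.30 to 2.37% against 1.35 to 1.38%. MCC CD69-lo libraries at 1 h held 1.67 to 1.80%, overlapping MCC CD69-hi libraries.

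**Figure D1:**
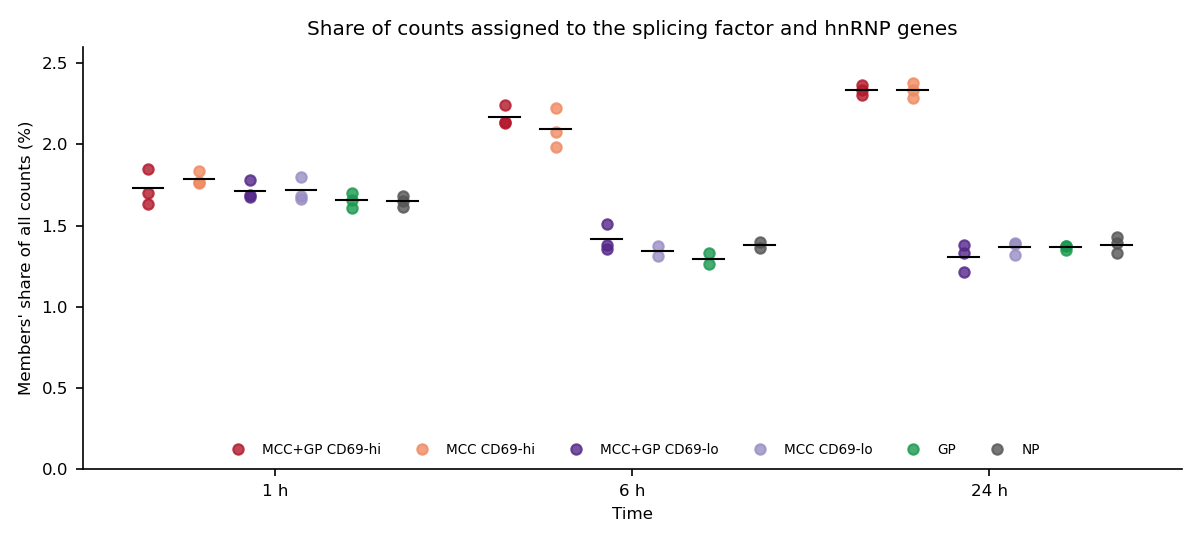
Share of all counts, in percent, held by the 53 splicing factor and hnRNP genes in each library, by group and time; points are libraries and bars are group means. MCC CD69-hi libraries reach 2.28 to 2.38% at 24 h, and NP libraries 1.33 to 1.43%.

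The first comparison asks how MCC CD69-hi cells differed from cells given no peptide at the same time. At 1 h, 6 of the 52 tested genes were higher and 5 lower (edgeR quasi-likelihood test, two-sided, adjusted p under 0.05), against 12.4% of all genes tested higher and 17% lower, so the 1 h shares of these genes lie near those of all genes. At 6 h, 38 were higher and 5 lower, against 23.2% and 23.6% of all genes. At 24 h, 43 were higher and 4 lower, against 29.2% and 28.7% of all genes. The median log2 fold change of the 52 genes was 0.15 at 1 h, 1.18 at 6 h and 1.48 at 24 h, against -0.05, 0.00 and -0.14 over all genes. The libraries of both groups did not overlap for 21, 46 and 49 of the 52 genes at the 3 times. How often this held over all genes was not counted, so these numbers have no background to be read against. Of the 52 genes, 32 passed the test as higher at 6 and 24 h but not at 1 h, and 6 as higher at all 3 times. How often each pattern occurred over all genes was not counted. The 6 genes higher at all 3 times were Hnrnpab, Snrpa, Snrpd1, Snrpd2, the SR gene Srsf9 and Hnrnpu. The protein of Hnrnpu also binds chromatin in the nucleus.

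**Figure D2:**
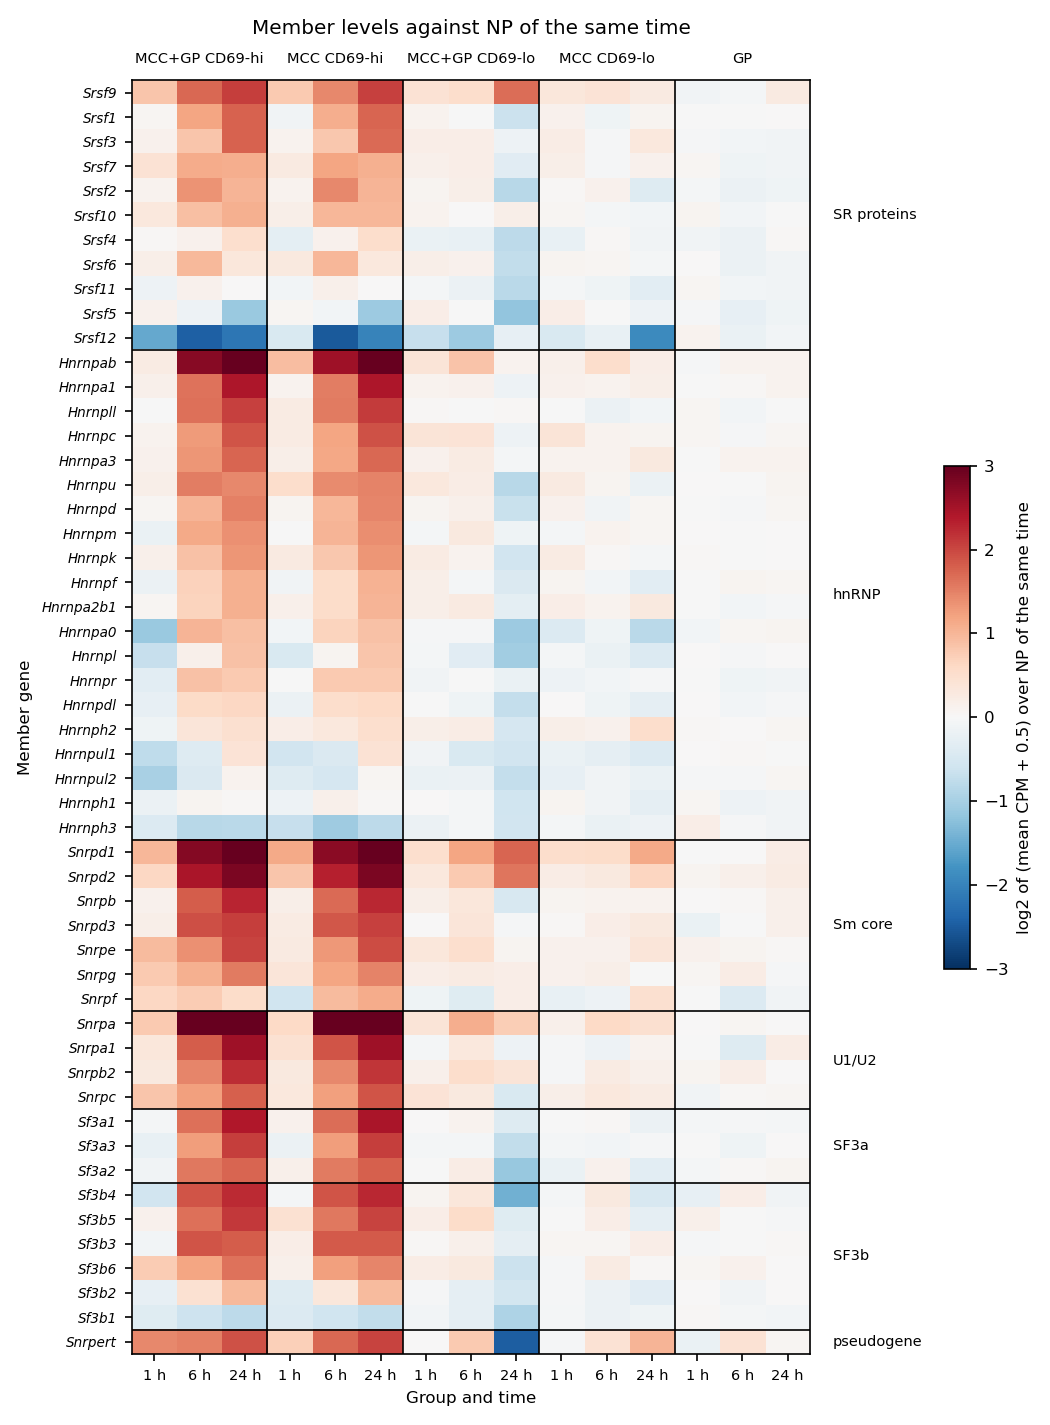
Mean level of each gene in each group relative to NP cells of the same time, as log2 of the ratio of CPM with a pseudocount of 0.5, with genes ordered by role and colours clipped at 3. MCC+GP CD69-hi and MCC CD69-hi cells at 6 and 24 h are mostly above NP, with Sf3b1, Hnrnph3 and Srsf12 below it.

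The Sm ring genes had some of the largest fold changes. CPM of splicing genes, here and below, uses library totals adjusted by TMM scaling. Snrpd1, which encodes the ring protein D1, measured 68.5, 65.3 and 71.1 CPM in MCC CD69-hi libraries at 1 h, against 31.7, 36.2 and 25.3 CPM in NP libraries. The 6 h values were 112, 133 and 123 CPM in MCC CD69-hi libraries, against 22.4 and 14.2 CPM in NP libraries. The 24 h values were 189, 168 and 179 CPM in MCC CD69-hi libraries, against 11.3, 12.05 and 13.2 CPM in NP libraries. Every MCC CD69-hi library was above every NP library, and the gap widened from both sides over time. The log2 fold change of Snrpd1 was 1.14 (SE 0.22, adjusted p = 4.26e-05) at 1 h, 2.74 (SE 0.25, adjusted p = 5.58e-14) at 6 h and 3.87 (SE 0.23, adjusted p = 7.43e-22) at 24 h. Snrpd2, for the neighbouring ring protein D2, rose by 0.74, 2.34 and 2.83 at the 3 times. Of the 7 tested ring genes, 6 rose at 6 and at 24 h, and the median over the 7 was 1.70 and 2.07. The remaining one, Snrpf, had 313 counts in all libraries and lies over another annotated gene, Ccdc38, so its level is uncertain.

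The genes of U1 and U2 proteins all rose at 6 and 24 h. Snrpa, the A protein of the U1 particle, which binds a loop of U1 RNA, measured 40.9, 46.6 and 34.3 CPM in MCC CD69-hi libraries at 1 h, against 25.8, 27.8 and 26.8 CPM in NP libraries. Snrpa stood at 123, 126 and 127 CPM at 6 h in MCC CD69-hi libraries, against 12.8 and 16.7 CPM in NP libraries. It stood at 159, 153 and 154 CPM at 24 h in MCC CD69-hi libraries, against 16.3, 13.9 and 18.7 CPM in NP libraries. The groups did not overlap at any time, and most of the gap was present by 6 h. Its log2 fold change was 0.56 (SE 0.21, adjusted p = 0.0375), 3.08 (SE 0.24, adjusted p = 8.76e-17) and 3.24 (SE 0.20, adjusted p = 8.05e-21). Snrpa1, a U2 protein, had a log2 fold change of 0.42 at 1 h, which did not pass the test, and rose by 1.90 and 2.57 at 6 and 24 h. The median over the 4 genes was 1.68 at 6 h and 2.37 at 24 h. Snrpa overlaps the RefSeq gene BC024978, and whether reads were assigned by strand is not given in the sources used here.

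SF3a and SF3b, the branch site complexes of the U2 particle, had most of their genes higher at 6 and 24 h. All 3 SF3a genes rose at 6 and 24 h, with medians of 1.56 and 2.08. Sf3a1 measured 341, 330 and 313 CPM in MCC CD69-hi libraries at 24 h, against 65.1, 58.7 and 55.1 CPM in NP libraries, a log2 fold change of 2.46 (SE 0.15, adjusted p = 7.04e-22). Sf3a3 had log2 fold changes of -0.10 at 1 h, which did not pass the test, and of 1.25 and 2.08 at 6 and 24 h. Of the 6 SF3b genes, 4 rose at 6 h and 5 at 24 h. Sf3b4, whose protein contacts RNA next to the branch site, rose by 1.90 and 2.29. Sf3b2 had log2 fold changes of -0.38 at 1 h, past the test but not when any 1 library was left out, 0.35 at 6 h, not past the test, and 0.96 at 24 h, past it.

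Sf3b1 (chromosome 1, 54985169 to 55027501, GRCm38.p6), the scaffold subunit of SF3b that holds the branch site, went the other way. It measured 1018, 1041 and 1103 CPM in MCC CD69-hi libraries at 1 h, against 1343, 1439 and 1427 CPM in NP libraries. Sf3b1 was at 730, 843 and 716 CPM at 6 h in MCC CD69-hi libraries, against 1132 and 1180 CPM in NP libraries. By 24 h it was at 664, 602 and 634 CPM in MCC CD69-hi libraries, against 1067, 1103 and 980 CPM in NP libraries. Every MCC CD69-hi library lay below every NP library at each time. The log2 fold change was -0.41 (SE 0.13, adjusted p = 0.0107) at 1 h, -0.60 (SE 0.14, adjusted p = 0.000284) at 6 h and -0.73 (SE 0.13, adjusted p = 1.68e-06) at 24 h. Sf3b1 and Hnrnph3 were the only ones of the 52 called lower at all 3 times.

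**Figure D3:**
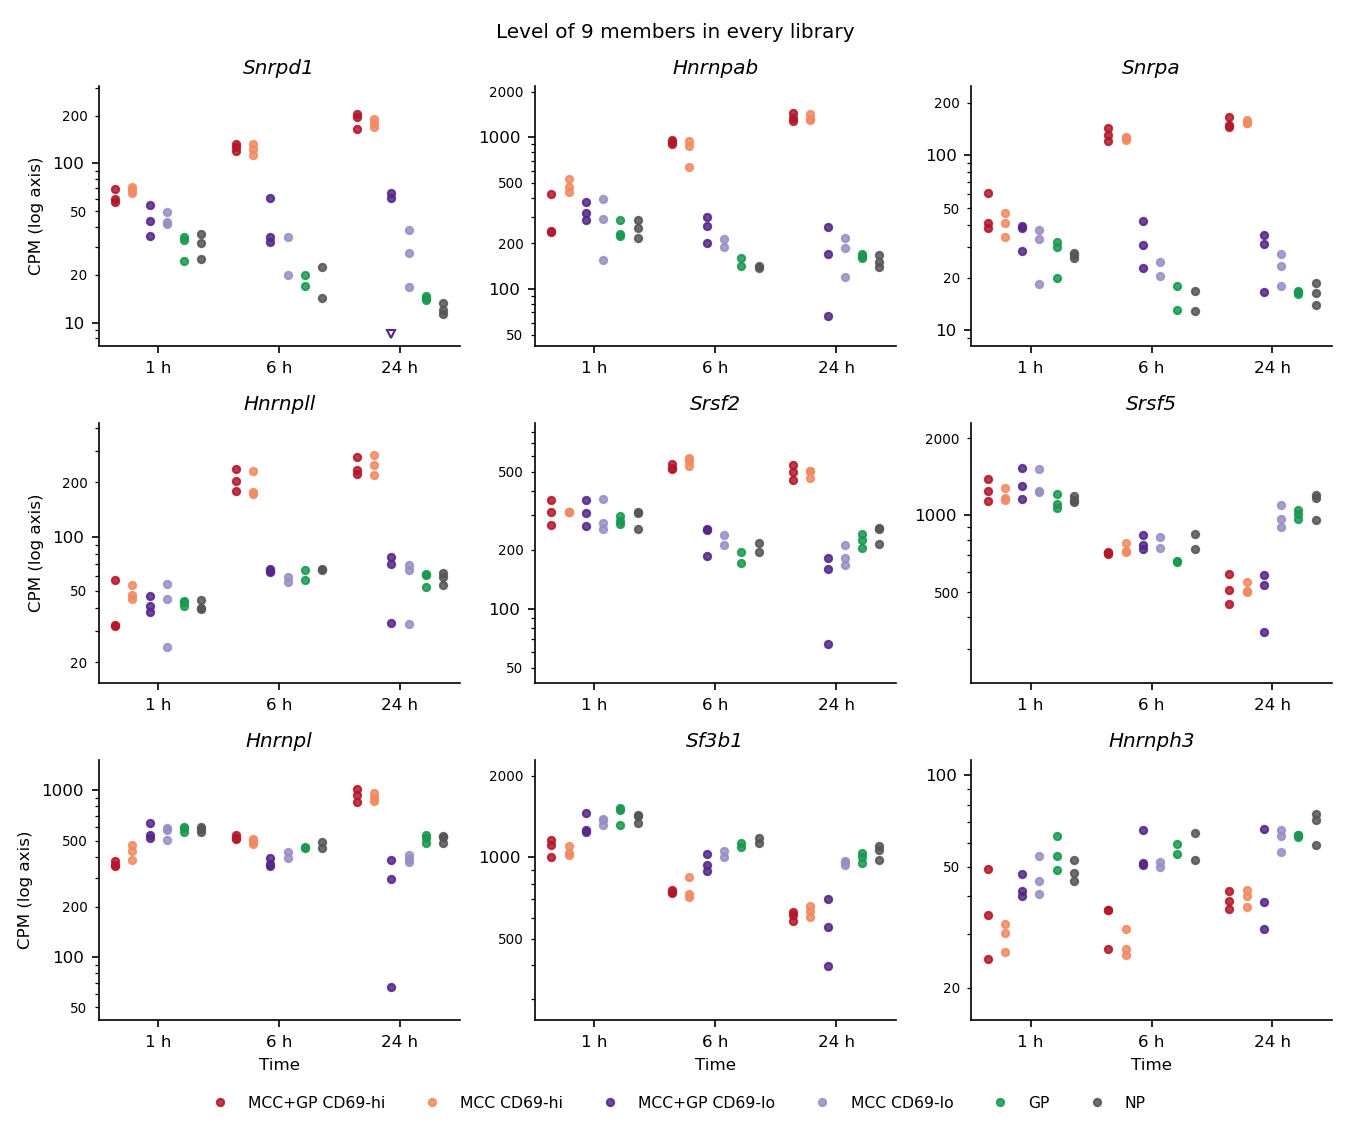
Level in every library, in CPM on a logarithmic axis, of 9 genes by group and time; points are libraries and an open triangle marks a library at 0. Snrpd1 and Snrpa separate MCC CD69-hi from NP libraries upward, whereas Sf3b1 is lower in MCC CD69-hi libraries at each time and Srsf5 at 24 h.

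Among the hnRNP genes, 2 were higher and 3 lower at 1 h, 13 higher and 3 lower at 6 h, and 16 higher and 1 lower at 24 h, of 20. Hnrnpab (chromosome 11, 51600100 to 51606881), which encodes a protein of the A/B type found on mRNA and DNA, measured 433, 529 and 472 CPM in MCC CD69-hi libraries at 1 h, against 253, 283 and 217 CPM in NP libraries. Hnrnpab reached 872, 635 and 939 CPM at 6 h in MCC CD69-hi libraries, against 137 and 142 CPM in NP libraries. It reached 1432, 1318 and 1302 CPM at 24 h in MCC CD69-hi libraries, against 150, 139 and 167 CPM in NP libraries. The groups were apart at each time. The log2 fold change was 0.93 (SE 0.22, adjusted p = 0.00102), 2.55 (SE 0.27, adjusted p = 2.33e-11) and 3.15 (SE 0.23, adjusted p = 2.29e-16). Hnrnpab overlaps the RefSeq gene Phykpl. Hnrnpa1, a widely expressed splicing repressor, measured 2179, 2012 and 2072 CPM in MCC CD69-hi libraries at 24 h, against 399, 364 and 396 CPM in NP libraries. Its log2 fold change was 0.11 at 1 h, which did not pass the test, 1.53 at 6 h and 2.43 at 24 h. Hnrnpd, whose protein also binds AU-rich elements of unstable mRNAs, rose by 0.99 and 1.47 at 6 and 24 h.

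The pair known from CD45 splicing followed different courses. Hnrnpll (chromosome 17, 80029487 to 80062268) measured 47.2, 53.6 and 44.8 CPM in MCC CD69-hi libraries at 1 h, against 40.0, 39.4 and 44.1 CPM in NP libraries. Hnrnpll was at 232, 174 and 178 CPM at 6 h in MCC CD69-hi libraries, against 64.9 and 65.96 CPM in NP libraries. It was at 286, 252 and 220 CPM at 24 h in MCC CD69-hi libraries, against 53.7, 62.7 and 59.5 CPM in NP libraries. The groups did not overlap, but the 1 h gap was small, with a log2 fold change of 0.22 that did not pass the test. It rose by 1.57 at 6 h and by 2.11 (adjusted p = 6.7e-15) at 24 h. Hnrnpl measured 381, 435 and 471 CPM in MCC CD69-hi libraries at 1 h, against 565, 588 and 604 CPM in NP libraries. At 6 h it measured 514, 475 and 499 CPM in MCC CD69-hi libraries, against 449 and 489 CPM in NP libraries. At 24 h it measured 964, 898 and 858 CPM in MCC CD69-hi libraries, against 530, 522 and 485 CPM in NP libraries. Hnrnpl was thus lower at 1 h, overlapped at 6 h and was higher at 24 h, with log2 fold changes of -0.45 (adjusted p = 0.0203), 0.08 (did not pass) and 0.82 (adjusted p = 4.05e-06).

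Hnrnph3, a relative of the G-tract binding protein hnRNP H, was the hnRNP gene that fell throughout. It measured 32.3, 30.3 and 26.3 CPM in MCC CD69-hi libraries at 1 h, against 44.9, 52.6 and 47.8 CPM in NP libraries. At 24 h it measured 40.1, 42.0 and 36.7 CPM in MCC CD69-hi libraries, against 58.9, 71.0 and 74.7 CPM in NP libraries. The groups did not overlap at either time, and the log2 fold change was -0.72, -1.07 and -0.79 at 1, 6 and 24 h. Hnrnpul1, of the hnRNP U-like proteins that take part in the response to DNA breaks, changed sign, at -0.56, -0.43 and 0.42, with each value past the test; with RLE scaling the 24 h value was 0.27 (adjusted p = 0.0597). Its relative Hnrnpul2 fell at 6 h by 0.51, and had log2 fold changes of -0.38 and 0.06 at 1 and 24 h, neither past the test.

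Of the 11 SR protein genes, 1 rose at 1 h, 7 rose and 1 fell at 6 h, and 8 rose and 2 fell at 24 h. Srsf1, the best known activator of exon inclusion, measured 528, 591 and 570 CPM in MCC CD69-hi libraries at 6 h, against 206 and 318 CPM in NP libraries. At 24 h it measured 886, 803 and 852 CPM in MCC CD69-hi libraries, against 193, 285 and 281 CPM in NP libraries. The groups did not overlap at either time, and the log2 fold change was 1.10 at 6 h and 1.74 at 24 h, after -0.10 at 1 h, which did not pass. Srsf3, a small SR protein with a role in mRNA export, rose by 0.82 and 1.71. Srsf2 and Srsf7 had their larger fold change at 6 h, at 1.45 and 1.17, against 1.01 and 1.06 at 24 h. Srsf2 shares its locus with Mfsd11 in RefSeq.

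Srsf5 (chromosome 12, 80945495 to 80950507), an SR protein gene first described in regenerating rat liver, was unlike the other abundant SR genes. It measured 1143, 1172 and 1279 CPM in MCC CD69-hi libraries at 1 h, against 1143, 1190 and 1126 CPM in NP libraries. At 6 h it measured 779, 725 and 715 CPM in MCC CD69-hi libraries, against 841 and 735 CPM in NP libraries. At 24 h it measured 545, 501 and 505 CPM in MCC CD69-hi libraries, against 1197, 1168 and 957 CPM in NP libraries. The groups overlapped at 1 and 6 h and were apart at 24 h, where the log2 fold change was -1.10 (SE 0.14, adjusted p = 6.11e-10). The other SR gene that fell, Srsf12, is scarce, with means of 0.32 and 0.80 CPM in MCC CD69-hi cells at 6 and 24 h, against 4.17 and 4.72 CPM in NP cells. Its log2 fold changes were -3.66 and -2.50.

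**Figure D4:**
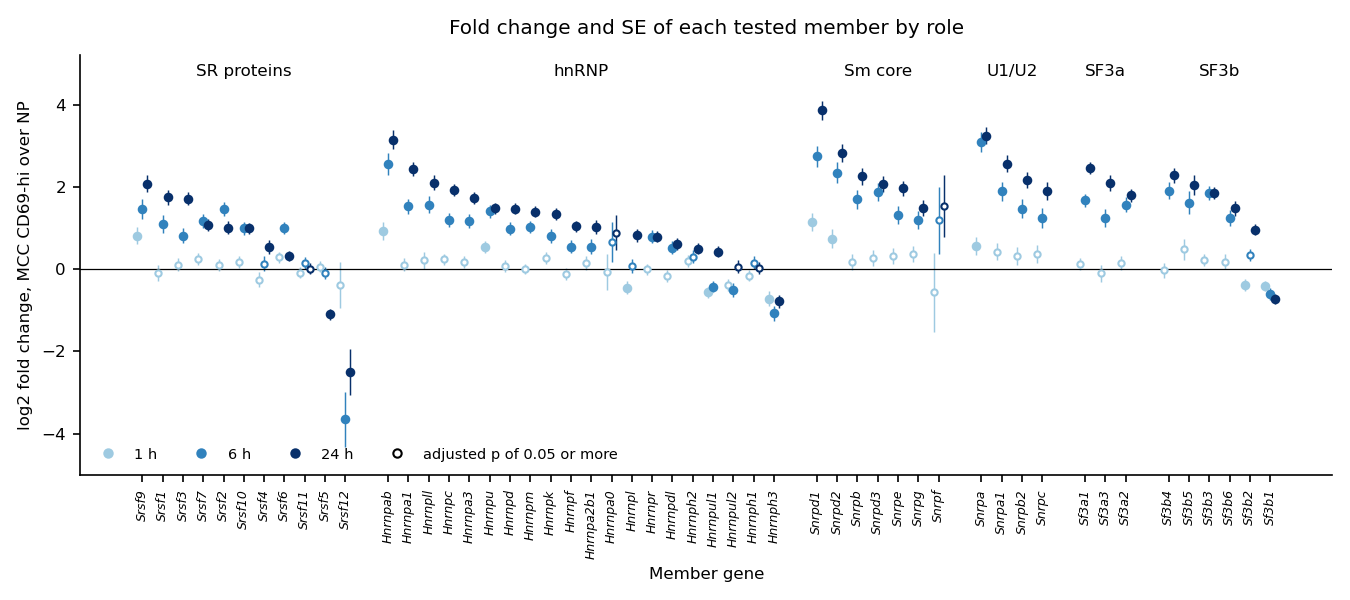
Log2 fold change of each tested gene in MCC CD69-hi against NP cells at 1, 6 and 24 h, by role, with bars for 1 SE and filled points for adjusted p under 0.05; Snrpert is not drawn. The ring, U1 and U2, and SF3a genes lie above 0 at 6 and 24 h, whereas SR, hnRNP and SF3b genes include members below it.

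The 1 h calls depended on the processing more than the later ones. The share of all genes called in the alternative fits is not given, here or below. Their counts therefore have no background to be read against. With RLE in place of TMM scaling, 12 genes were higher and 2 lower at 1 h, and the falls of Hnrnpl, Sf3b1 and Sf3b2 no longer passed; over all genes 54.6% of the calls were then upward, against 42.2% with TMM. With the summed B cell RNA as a covariate, 7 were higher and 0 lower at 1 h, and 44 and 45 genes changed at 6 and 24 h. The B cell sums of both groups did not overlap at any time. This fit therefore cannot fully tell B cell RNA apart from the group difference. Leaving out 1 library at a time left 7 to 9 calls at 1 h, and Hnrnpl and Sf3b2 failed without any one of the 6 libraries of the comparison, with Snrpa, Snrpd2, Sf3b1 and Hnrnph3 failing without some of them.

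MCC+GP CD69-hi cells set against GP cells repeat the comparison in libraries that share none with the first. At 1 h, 9 of the 52 genes were higher and 6 lower, against 13.7% and 20.1% of all genes. At 6 h, 39 were higher and 5 lower, against 23.5% and 23.2% of all genes. At 24 h, 43 were higher and 4 lower, against 29.5% and 29% of all genes. The median log2 fold change was 0.10, 1.21 and 1.54, against -0.09, 0.00 and -0.15 over all genes. The same 38 genes were called up at 6 h in both comparisons and the same 43 at 24 h, with 5 and 4 called down in both and none in opposite directions. At 1 h, 3 were up and 4 down in both and 12 were called in one comparison only. Calls shared by both comparisons were not counted over all genes. Across the 52 genes, Pearson's r between the fold changes of both comparisons was 0.68 at 1 h, 0.99 at 6 h and 0.99 at 24 h; genes are not independent replicates.

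Snrpd1 measured 204, 165 and 194 CPM in MCC+GP CD69-hi libraries at 24 h, against 14.8, 13.8 and 14.4 CPM in GP libraries, a log2 fold change of 3.71 (SE 0.23, adjusted p = 2.26e-21). Snrpa had log2 fold changes of 0.78, 3.08 and 3.22 at the 3 times, each past the test. Sf3b1 measured 629, 580 and 611 CPM in MCC+GP CD69-hi libraries at 24 h, against 1037, 1001 and 957 CPM in GP libraries, a log2 fold change of -0.72 after -0.40 and -0.57 at 1 and 6 h. Hnrnpab, higher at 1 h in the first comparison, measured 420, 241 and 239 CPM in MCC+GP CD69-hi libraries, against 222, 284 and 229 CPM in GP libraries. The groups overlapped, and its 1 h log2 fold change of 0.29 did not pass. Hnrnpl fell by 0.70 at 1 h and rose by 0.87 at 24 h, and Srsf5 fell by 0.97 at 24 h. The B cell genes summed to 3262 to 5927 CPM in MCC+GP CD69-hi libraries at 1 h, against 581 to 938 CPM in GP libraries. With their RNA as a covariate 10 genes were higher and 2 lower. Here too the sums did not overlap, so B cell RNA and the group difference cannot be fully told apart. RLE scaling turned the 1 h split to 22 higher and 3 lower, with 59.7% of all calls upward in place of 40.6%.

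Within MCC CD69-hi cells, more of the genes rose between 1 and 6 h than later. From 1 to 6 h, 33 genes rose and 5 fell, against 22.2% and 18.5% of all genes, and from 6 to 24 h, 23 rose and 3 fell, against 21.3% and 16.9% of all genes. In the first interval alone 16 genes rose, 16 did so in both and 7 in the second alone. These patterns were not counted over all genes. Hnrnpll, Snrpa and Sf3a3 had the largest rises of the first interval, at 2.02, 1.66 and 1.44 on the log2 scale, and Srsf1 rose by 1.41. The genes that fell in that interval were Srsf5 at -0.70, Hnrnph2 at -0.69, Hnrnph1 at -0.50, Sf3b1 at -0.47 and the scarce Srsf12. In the second interval Hnrnpl led at 0.87, before Hnrnpab at 0.73 and Hnrnpul1 at 0.64 (Hnrnpab was at -0.064 with the B cell RNA covariate), and the 3 genes that fell were all SR genes, Srsf5 at -0.52, Srsf7 at -0.38 and Srsf6 at -0.34. The second interval is the less certain: it gave 8 calls with the B cell RNA covariate, 17 without a filter on low counts, and 13 to 18 when any 1 library of the compared groups was left out, in place of 26. The B cell sums of MCC CD69-hi libraries at 6 and 24 h did not overlap. The covariate and the interval therefore cannot be fully told apart.

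NP cells changed over the day as well. At 24 h against 1 h, 2 genes were higher and 21 lower in NP cells, against 11.3% and 12.6% of all genes, with a median of -0.42 against 0.01. Snrpd1 fell by 1.35 (adjusted p = 6.26e-06), Hnrnph2 by 1.10, Hnrnpa1 by 1.09 and Srsf3 by 1.03, and Hnrnpll and Hnrnph3 rose by 0.51 and 0.50, both of which failed without some single libraries. A fold change against NP at 24 h therefore holds both the level in stimulated cells and this fall. The change of the MCC CD69-hi against NP difference from 6 to 24 h passed the test in 10 genes upward and 2 downward, against 13.7% and 9.21% of all genes, so the upward share lies near the background. Hnrnpa1, with a log2 fold change of 1.53 at 6 h and 2.43 at 24 h, was among those that gained, as were Snrpd1, Srsf3 and Hnrnpl, and Srsf5 and Srsf6 were those that lost.

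CD69-lo cells given MCC differed from NP cells in few of these genes, and at 1 and 6 h in few genes of any kind. In MCC CD69-lo cells no gene of the 52 was called at 1 or 6 h, against 3.15% and 2.12% of all genes in either direction (edgeR; 3 and 2 had an unadjusted p under 0.05; DESeq2 called 2 at 1 h). At 24 h, 5 were called, against 18.5% of all genes. Snrpd1 measured 27.4, 38.2 and 16.8 CPM in MCC CD69-lo libraries at 24 h, against 11.3, 12.05 and 13.2 CPM in NP libraries. They did not overlap, and the log2 fold change was 1.21 (SE 0.25, adjusted p = 0.000342), but without the library at 38.2 CPM it was 0.79 (adjusted p = 0.064 by edgeR). Snrpd2 and Hnrnph2 rose by 0.67 and 0.53, and Hnrnpul1 and Srsf12 fell by 0.41 and 2.23. The B cell genes summed to 893 to 1832 CPM in these MCC CD69-lo libraries and 653 to 929 CPM in NP libraries. The 20 myeloid and dendritic cell genes summed to 325 to 749 CPM in MCC CD69-lo libraries and 86.7 to 318 CPM in NP libraries. Genes listed for NK and CD8 T cells summed to 147 to 372 CPM in MCC CD69-lo libraries and 82.1 to 95.2 CPM in NP libraries. Gzmb made up most of that difference, with means of 129 CPM in MCC CD69-lo cells and 0 CPM in NP cells. Of that list Klrd1 and Cd8b1 alone were lower, at 7.90 and 13.0 CPM in MCC CD69-lo cells, against 31.8 and 17.3 CPM. T cell genes summed to 12221 to 13243 CPM in MCC CD69-lo libraries and 17270 to 18879 CPM in NP libraries. The part of these cell type genes in the result was not tested. The 24 h count was 9 without the 3 shallow MCC+GP CD69-lo libraries in the model and 3 with the compared groups alone. It was also higher with DESeq2.

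Set directly against MCC CD69-lo cells, MCC CD69-hi cells differed in 4 genes at 1 h, against 12.5% of all genes. Hnrnpab and Snrpd1 were higher by 0.78 and 0.62 on the log2 scale, and Sf3b1 and Hnrnph3 lower, at -0.36 and -0.66. At 6 h, 38 were higher and 4 lower, against 19.9% and 22.5% of all genes, and at 24 h 44 were higher and 3 lower, against 29.1% and 32.6%. Hnrnpab had the largest fold change at 24 h, 2.96 (SE 0.24, adjusted p = 3.67e-15), from 1432, 1318 and 1302 CPM in MCC CD69-hi libraries and 218, 186 and 119 CPM in MCC CD69-lo libraries. Sf3b1, Hnrnph3 and Srsf5 were the 3 lower at 24 h, at -0.59, -0.63 and -0.94. At 24 h the B cell genes summed to 224 to 377 CPM in MCC CD69-hi libraries, against 893 to 1832 CPM in MCC CD69-lo libraries, and the myeloid and dendritic cell genes to 51.8 to 74.3 CPM, against 325 to 749 CPM. With the B cell RNA covariate 41 of the 52 genes were called at 24 h, in place of 47; the part of the myeloid and dendritic cell RNA in the result was not tested. The 1 h count moved between 1 and 17 with the settings tried.

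Adding GP to MCC was not accompanied by a call in CD69-hi cells. Between MCC+GP CD69-hi and MCC CD69-hi cells the test called 0 of the 52 genes at 1, 6 and 24 h, against 0.68%, 0% and 0% of all genes, and 0 for the mean over times, against 0.0116% (edgeR; 10, 0, 0 and 2 genes had an unadjusted p under 0.05; DESeq2 called 3 at 1 h). Of the 49 genes at or above 5 CPM, 48 had a 95% interval of the mean difference within 0.5 of zero on the log2 scale. Time by time, 22, 42 and 46 of the 49 did so at 1, 6 and 24 h, and the 1 h differences ran from -1.04 in Hnrnpa0 to 0.63 in Snrpe. The smallest p at 1 h, picked after the values were seen, was that of Hnrnpul2, with a log2 fold change of -0.60 (interval -0.92 to -0.27, adjusted p = 0.0548). Over the 3 times Snrpe, a ring gene also picked after the values were seen, had the highest difference, 0.25 (interval 0.04 to 0.47, adjusted p = 0.65).

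GP alone against NP gave 0 of the 52 genes at 1, 6 and 24 h, against 0%, 0% and 0.00581% of all genes, and 0 for the mean over times, against 0% (edgeR; no gene of the 52 had an unadjusted p under 0.05 at any time or in the mean, and 138, 126, 190 and 199 of all genes had). Of the 49 genes at or above 5 CPM, 48 again had an interval of the mean difference within 0.5 of zero; Srsf5, at -0.14 (interval -0.31 to 0.03), had the lowest mean. Time by time, 41, 29 and 40 of the 49 had such an interval at 1, 6 and 24 h. Fewer of all 17211 genes had an unadjusted p under 0.05 than the 0.05 share expected without any difference. The test was thus cautious in the comparisons of GP with NP, and a count of 0 does not show equal levels. Whether GP acted differently with MCC than alone was tested as the difference of both means, which gave 0 of the 52 genes, against 0% of all genes (edgeR; 0 of the 52 and 648 of all genes had an unadjusted p under 0.05).

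MCC+GP CD69-lo against MCC CD69-lo cells gave 0 genes at 1 and 6 h, against 0% and 0% of all genes (edgeR; 0 and 3 of the 52 had an unadjusted p under 0.05). At 24 h, 2 were higher and 10 lower, against 7.37% and 12% of all genes. Srsf9 was higher by 1.32, and Sf3b1 and Srsf5 were lower, at -0.72 and -0.94. Sf3b1 measured 703, 398 and 555 CPM in MCC+GP CD69-lo libraries, against 965, 935 and 967 CPM in MCC CD69-lo libraries, without overlap. These are the shallow libraries, and one of them, with 29030 counts, held no Snrpd1 read, a depth at which its level cannot be read. The summed level of 20 myeloid and dendritic cell genes was 3092 to 4352 CPM in MCC+GP CD69-lo libraries and 325 to 749 CPM in MCC CD69-lo libraries, and that of 12 T cell genes 4145 to 8026 CPM and 12221 to 13243 CPM. Their part in the result was not tested; the count was 1 with the compared groups alone and 5 to 7 in the RLE, DESeq2, B cell covariate and unfiltered fits.

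Per length, the role groups held different shares of the RNA of these genes in MCC CD69-hi and NP cells at 24 h. No protein or complex was measured. In TPM (length-scaled transcript abundance), the hnRNP genes held 62.0% of the summed level of all 53 genes in MCC CD69-hi cells at 24 h and 57.8% in NP cells, and the SR genes 16.6% and 26.1%. The Sm ring genes held 8.97% in MCC CD69-hi cells and 4.16% in NP cells, the U1 and U2 genes 2.63% and 0.96%, the SF3a genes 3.63% and 1.93%, and the SF3b genes 5.87% and 8.88%. By mean level at 24 h, Hnrnpa2b1, Hnrnpu and Hnrnpa1 led in MCC CD69-hi cells, at 1608, 1497 and 1362 TPM. Srsf5, Hnrnpa2b1 and Hnrnph1 led in NP cells, at 943, 899 and 801 TPM. Hnrnpa2b1 and Hnrnph1 are named here for their rank by level, seen in the data.

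Ratios between the levels of some of these genes differed between the groups, in TPM. Among the 6 well measured ring genes (Snrpb, Snrpd1, Snrpd2, Snrpd3, Snrpe and Snrpg), the highest TPM was 3.71 to 3.82 times the lowest in MCC CD69-hi libraries at 24 h, against 5.63 to 7.21 times in NP libraries. Sf3b1 stood at 0.98 to 1.07 times the TPM of Sf3b3, another large SF3b subunit, in MCC CD69-hi libraries at 24 h, against 5.86 to 6.64 times in NP libraries. At 6 h that ratio was 1.25 to 1.44 in MCC CD69-hi libraries, against 7.05 to 7.48 in NP libraries, and at 1 h 3.49 to 3.90, against 5.50 to 6.20. The libraries of these groups did not overlap at any time, whereas MCC+GP CD69-hi libraries at 1 h, at 3.13 to 6.69, overlapped GP libraries, at 5.72 to 6.34. Snrpd1 stood at 0.68 to 0.77 times Snrpe in MCC CD69-hi libraries at 24 h, against 0.18 to 0.20 times in NP libraries. Srsf5 stood at 0.65 to 0.68 times Srsf1 in MCC CD69-hi libraries at 24 h, against 3.73 to 6.79 times in NP libraries, and Hnrnpll at 0.13 to 0.15 times Hnrnpl, against 0.05 to 0.06 times. These ratios were chosen after the fold changes were known and carry no test.

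**Figure D5:**
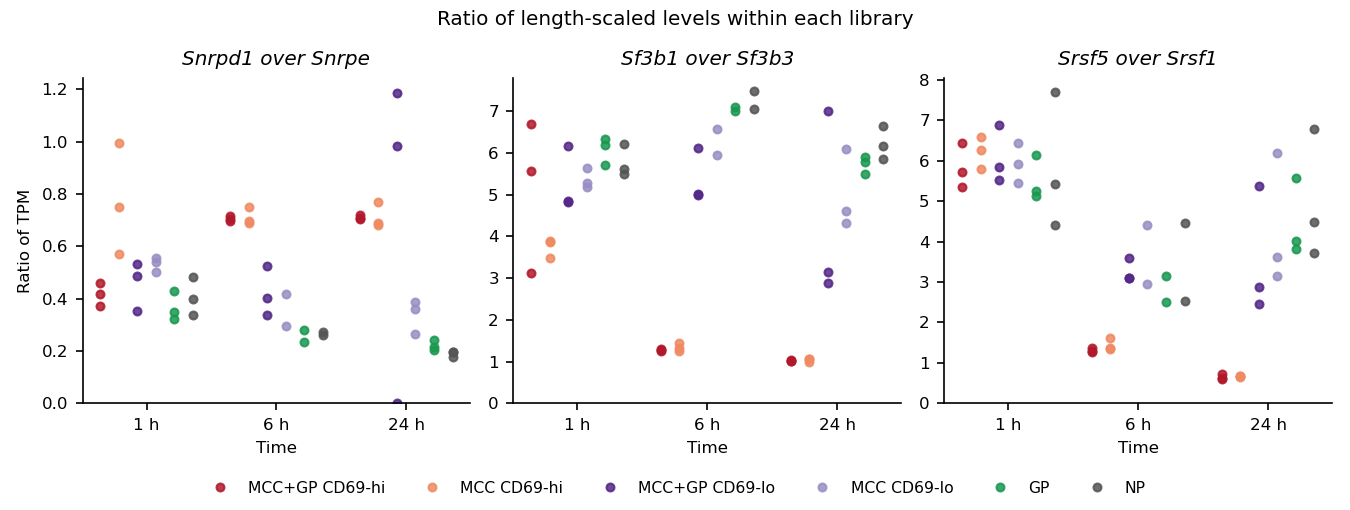
Ratio of TPM of Snrpd1 to Snrpe, Sf3b1 to Sf3b3 and Srsf5 to Srsf1 within each library, by group and time; points are libraries. At 24 h the ratio of Sf3b1 to Sf3b3 is 0.98 to 1.07 in MCC CD69-hi libraries and 5.86 to 6.64 in NP libraries.

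Other genes of the splicing pathway were counted by list in the same comparison of MCC CD69-hi with NP cells. Beside these counts, 12.4% of all genes rose and 17% fell at 1 h. The shares were 23.2% and 23.6% at 6 h, and 29.2% and 28.7% at 24 h. Genes named from a list were taken from those with its largest fold changes past the test, so they are not typical of it. Of 26 further proteins of the U particles, 1 rose and 3 fell at 1 h, 15 rose and 1 fell at 6 h, and 16 rose and 2 fell at 24 h. Eftud2, the GTPase of the U5 particle, averaged 486 CPM in MCC CD69-hi cells at 24 h and 87.1 CPM in NP cells, a log2 fold change of 2.48. Of 10 Lsm genes, which form the ring on U6 RNA and on decaying mRNA, 0 rose and 2 fell at 1 h, 5 rose and 0 fell at 6 h, and 8 rose and 0 fell at 24 h, with Lsm7 at 2.73. Of 20 genes for splice site recognition and the complex around Prpf19, 1 rose and 3 fell at 1 h, 12 rose and 2 fell at 6 h, and 15 rose and 2 fell at 24 h. Prpf19, the ubiquitin ligase of that complex, rose by 2.19 at 6 h and 2.36 at 24 h.

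Of 21 genes for assembly and import of small nuclear ribonucleoproteins, 1 rose and 0 fell at 1 h, 13 rose and 1 fell at 6 h, and 20 rose and 0 fell at 24 h. Gemin5, which recognises small nuclear RNA for the SMN complex, averaged 196 CPM in MCC CD69-hi cells at 6 h and 23.7 CPM in NP cells, a log2 fold change of 3.05. Strap, another protein of that complex, averaged 468 CPM in MCC CD69-hi cells at 24 h and 71.4 CPM in NP cells, a log2 fold change of 2.71. Of 17 splicing helicases and late-step factors, 1 rose and 8 fell at 1 h, 9 rose and 3 fell at 6 h, and 9 rose and 3 fell at 24 h. Prpf18, a factor of the second step, fell by 1.04 at 1 h.

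Of 11 genes listed as kinases and importers of SR proteins, 2 rose and 4 fell at 1 h, 2 rose and 7 fell at 6 h, and 3 rose and 7 fell at 24 h. Srpk2, a kinase that phosphorylates SR proteins in the cytoplasm, averaged 17.9 CPM in MCC CD69-hi cells at 6 h and 129 CPM in NP cells, a log2 fold change of -2.85 (SE 0.16, adjusted p = 5.35e-22). Clk1, a nuclear kinase of SR proteins, fell by 1.66 at 6 h and by 2.22 at 24 h. The list also holds Prmt1, the arginine methyltransferase that modifies many hnRNP proteins, which rose by 2.75 and 3.49. Of 40 other splicing regulators, 3 rose and 12 fell at 1 h, 21 rose and 8 fell at 6 h, and 28 rose and 9 fell at 24 h. Syncrip, an hnRNP-like protein also known as hnRNP Q, rose by 2.14 and 1.92, Celf2 fell by 1.62 at 6 h, and Mbnl1, a repressor or activator of exons by position, fell by 0.90 at 1 h.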

How the data were processed

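The submitters' processing notes name bcl2fastq 2.20, STAR 2.6.1c, HTSeq 0.9.1 and the mouse build mm10; whether strand was used is not given in the sources used here. The table of raw counts deposited by the authors was used for every test. A second table deposited by the authors as TPM has columns that sum to about a hundredth of the usual TPM total; its values times 100 are called TPM here and serve only to compare genes.

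Counts of all 51 libraries were scaled with TMM and kept with filterByExpr by group. A quasi-likelihood model with 1 coefficient per group was fitted (edgeR 4.0.16, limma 3.58.1, R 4.3.3). Tests were two-sided, adjusted by Benjamini and Hochberg over all 17211 genes at 0.05. The fit was tested on simulated data. Comparisons over times are means of the within-time differences. CPM of splicing genes uses TMM library sizes, whereas CPM of the cell type genes and their sums uses plain library totals. RefSeq GRCm38.p6, which holds 53 of the 53 genes, gave coordinates, and 19 of them overlap another gene.

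The genes, lists and comparisons were chosen with earlier results of these data known. Named members are a fixed panel, up to 8 rising and 8 falling genes by fold change, and members that moved against their role group. The rising and falling genes had 5 CPM or more and no overlap. Genes named from the other splicing lists were taken by largest absolute log2 fold change past the test at 5 CPM or more. They are therefore not typical of their lists. Others are said to be chosen after their values were seen. Alternatives were RLE scaling, no filter, a replicate block by order of well, a B cell RNA covariate, fewer groups or libraries, leaving out each library, and DESeq2 1.42.0. No sequence is printed. Depth per library limits precision at 1 h in CD69-hi cells, with 852129 to 3346959 counts.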

Additional observations from a re-analysis of the deposited data

Results flagged for a closer look

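For 12 of the genes a test of the difference itself found that the log2 fold change of MCC CD69-hi against NP cells was not the same at 24 h as at 6 h (edgeR, adjusted over all genes): 10 upward and 2 downward of 52, against 13.7% and 9.21% of all genes. The gain from 6 to 24 h was 1.12 (SE 0.32, adjusted p = 0.00788) in Snrpd1, 0.90 (SE 0.23) in Hnrnpa1, 0.89 (SE 0.23) in Srsf3 and 0.85 (SE 0.19) in Hnrnpul1. It was 0.83 in Sf3a3, 0.78 in Sf3a1, 0.74 in Hnrnpl, 0.73 in Hnrnpc, which encodes a protein that binds runs of uridine, 0.62 in Sf3b2 and 0.56 in Hnrnpa3. The difference was negative in 2 SR genes, at -0.68 (SE 0.20, adjusted p = 0.00839) in Srsf6 and -1.01 (SE 0.21, adjusted p = 0.000194) in Srsf5. Srsf6 averaged higher in MCC CD69-hi than in NP cells at both times. The difference also holds the change in NP cells, which was not tested by itself from 6 to 24 h. NP means fell from 18.3 to 12.2 CPM in Snrpd1, 549 to 387 CPM in Hnrnpa1 and 285 to 205 CPM in Srsf3. They rose from 469 to 513 CPM in Hnrnpl, 788 to 1107 CPM in Srsf5 and 382 to 482 CPM in Srsf6. Hnrnpc and Hnrnpa3 were not called from 6 to 24 h within MCC CD69-hi cells. With the B cell RNA covariate 7 of the 52 genes passed this test, 4 upward and 3 downward. Without the first NP library at 6 h the value of Snrpd1 was 0.74 (adjusted p = 0.188), and Sf3a3, Hnrnpl, Hnrnpc, Sf3b2, Hnrnpa3 and Srsf6 each failed without at least 1 library.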

How the results depend on the processing

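Counts of called genes moved by over 1.5 times in these cases. For MCC CD69-hi against NP at 1 h (11) the count was 7 with the B cell RNA covariate and 26 with DESeq2. For MCC+GP CD69-hi against GP at 1 h (15) it was 25 with RLE and 29 with DESeq2. For MCC CD69-lo against NP it was 1 without the shallow MCC+GP CD69-lo 24 h libraries and 2 with DESeq2 at 1 h (0), 1 with the covariate and 1 with the compared groups only at 6 h (0), and 9 without the shallow libraries, 3 with the compared groups only and 11 with DESeq2 at 24 h (5). For MCC CD69-hi against MCC CD69-lo at 1 h (4) it was 8 with RLE, 2 without the filter, 7 without the shallow libraries, 1 with the compared groups only and 17 with DESeq2. For the addition of GP in CD69-hi cells at 1 h (0) it was 1 without the filter, 1 without the shallow libraries, 2 without wells A8 to C8 (added after seeing the data) and 3 with DESeq2. For MCC+GP CD69-lo against MCC CD69-lo at 24 h (12) it was 5 with RLE, 7 without the filter, 6 with the covariate, 1 with the compared groups only and 6 with DESeq2. For MCC CD69-hi at 24 h against 6 h (26) it was 17 without the filter and 8 with the covariate, and for the change of MCC CD69-hi against NP from 6 to 24 h (12) it was 7 with the covariate and 27 with the compared groups only. The causes were not tested. Where B cell RNA did not overlap between the compared groups, the covariate fit cannot fully tell it apart from the group difference. Leaving out 1 library gave 7 to 9, 38 to 43 and 46 to 47 calls for MCC CD69-hi against NP at 1, 6 and 24 h, 12 to 16, 41 to 42 and 46 to 47 for MCC+GP CD69-hi against GP, 3 to 6 for MCC CD69-lo against NP at 24 h, 1 to 4, 40 to 42 and 44 to 46 for MCC CD69-hi against MCC CD69-lo, 0 to 2 for the addition of GP in CD69-hi cells at 1 h, 8 to 13 for MCC+GP CD69-lo against MCC CD69-lo at 24 h, 16 to 22 for NP over the day, 33 to 38 and 13 to 18 for the intervals of MCC CD69-hi, 8 to 12 for the change from 6 to 24 h, and 0 elsewhere. The labels give no pairing of replicates; with a replicate block by order of well the counts were 12, 45 and 48 for MCC CD69-hi against NP and 17, 45 and 48 for MCC+GP CD69-hi against GP, and no count moved by over 1.5 times. Another scaling shifted the median of all genes by up to 0.26 (DESeq2) in MCC+GP CD69-hi against GP at 1 h and by -0.15 (RLE) in MCC CD69-hi against NP at 24 h. No value that changed sign passed the test with its new sign. In MCC CD69-hi against NP cells at 1 h, Sf3a3 was 0.043 with RLE, 0.070 with the compared groups only, 0.054 with DESeq2 and -0.14 to 0.18 when leaving out 1 library, and Srsf1 was 0.041 with RLE, 0.68 with the covariate, 0.083 with the compared groups only, 0.041 with DESeq2 and -0.19 to 0.074 when leaving out 1 library. At 24 h Hnrnpul2 was -0.094 with RLE, -0.060 with the compared groups only and -0.094 with DESeq2. Hnrnpab at 24 h against 6 h in MCC CD69-hi cells was -0.064 with the covariate. Of the 1819 alternative values of the 126 named fold changes, 17 changed sign.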

Other observations

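Hnrnpa0, an hnRNP gene without introns in its coding part, differed between libraries of the same group. It measured 150, 126 and 99.7 CPM in 1 library each of MCC CD69-lo at 1 h, MCC+GP CD69-hi at 1 h and MCC CD69-lo at 24 h. The other libraries of those groups held 779 and 622 CPM, 558 and 265 CPM, and 367 and 434 CPM. The 3 low libraries come from neighbouring wells by their titles. The gene was chosen after its values were seen.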
